A study of Mus musculus with 6 samples.

Results

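The 38 genes described here form the amino acid branch of the ATF4 response: the transcription factors of the pathway, stress effectors, amino acid transporters, enzymes of serine, one-carbon and amino acid metabolism, and tRNA synthetases. They were listed by symbol for their known roles, with no threshold on measured values but with earlier results of these data known, and all 38 were matched among the 55414 gene identifiers of the deposited count table. RNA was sequenced from C2C12 cells, an established line of mouse myoblasts labelled as wild type and kept in serum-containing growth medium, after lipofection of a negative control siRNA (siControl 1 to 3) or an siRNA against Usf2 (siUsf2 1 to 3). USF2 is a transcription factor that binds E-box sequences, and the comparison asks which genes differ when it is knocked down. Nothing in the labels says whether the 3 libraries of a group came from separate cultures, how long after transfection cells were collected or how many siRNA sequences were used, so p-values measure only the spread between these libraries, which may be technical.

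ATF4 is the transcription factor at the centre of the integrated stress response. When amino acids run short or unfolded proteins accumulate, kinases phosphorylate the initiation factor eIF2, most translation slows, and the Atf4 mRNA is translated more efficiently, so that ATF4 protein can change with little change in its RNA. ATF4 pairs with C/EBP family proteins on the C/EBP-ATF response element (CARE) and raises genes that import, synthesise and charge amino acids, together with genes such as Ddit3 and Trib3 that steer prolonged stress.

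In siUsf2 1 and 2, 20 of the 38 genes fell, none rose and 18 did not pass the test. Here a gene was called at a Benjamini-Hochberg adjusted p below 0.05 in edgeR's quasi-likelihood test of siUsf2 1 and 2 against siControl 1 to 3. Among all 17217 genes tested the same test called 6.40% lower and 4.97% higher. Without siUsf2 1 the count was 6, and over all 6 libraries, which include the library labelled siUsf2 3, it was 0. The median log2 fold change of the 38 genes was -0.37, against -0.01 for all genes tested, and 33 of the 38 had a negative value. The falls were mostly moderate: Trib3 fell 2.40-fold, Slc7a5 1.99-fold, Psph and Slc7a11 1.90-fold, and the 5 tRNA synthetases that fell did so by 1.26-fold to 1.33-fold. In bulk RNA, fewer cells of a kind and less RNA per cell cannot be told apart. Levels are given as CPM, a gene's count scaled to the total count of its library.

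The library labelled siUsf2 3 is shown apart throughout. Its Usf2 level, 30.8 CPM, lay within the siControl range of 23.0 to 31.2 CPM, against 17.1 and 15.3 CPM in siUsf2 1 and 2, so it goes against its label. It held 3414565 counts, against 14790997 to 17715250 in the other 5, with 0.974% of them on pseudogenes, against 14.0% to 15.3%. Over all 55414 identifiers, its log2(CPM + 1) values correlated with those of siUsf2 1 and 2 at r = 0.916 to 0.917, while the other pairs within a group reached 0.997. These identifiers include the pseudogenes and 25980 without a count in any library, so r is not separate from the pseudogene share and depth just given. Usf2 was lower in siUsf2 1 and 2 by 0.74 on the log2 scale (SE 0.14; adjusted p = 6.43e-04 by edgeR) and did not pass over all 6 libraries (log2 fold change -0.40, edgeR adjusted p = 0.702). Muscle markers were present in every library, with 2090 to 3692 CPM summed over 6 muscle cell markers. The fibroblast genes Pdgfra and Dcn were also present (149 to 188 CPM summed over 4 fibroblast markers). Of these 4 markers, only 3 had enough counts to be tested in the 5-library comparison and 2 over all 6 libraries. In contrast, 4 markers each of macrophages, endothelial cells, adipocytes and epithelial cells summed to at most 3.37 CPM in any library. In each of these 4 lists 1 marker was at 0 throughout.

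CARE sequences were present near the start of several of these genes, and they are shown because it is the element that ATF4 binds. RefSeq promoter windows on GRCm38.p6, from 250 bases before to 50 bases after a transcript start, were found for 30 of the 38 genes. The motif TGATGNAA, searched on both strands, occurred in 11 of these 30 genes (36.7%), against 2.77% of the 10487 tested genes with a window. Among the 712 such genes that fell the share was 4.63%. The 30 genes were listed as ATF4 response genes, so their share may reflect that choice and says nothing about these libraries. It occurred in 6 of 16 members that fell (37.5%) and in 5 of 14 that did not pass (35.7%), similar shares of each. Each stretch below is read 5′ to 3′ on the gene's strand with the motif in capitals. Those with TGATG first carry it on the gene's strand and those ending in CATCA on the other strand.
Asns, 23 bases before the start, chr6:7693210-7693252, minus strand: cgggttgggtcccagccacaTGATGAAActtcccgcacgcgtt
Chac1, 193 bases before the start, chr2:119351029-119351076, plus strand: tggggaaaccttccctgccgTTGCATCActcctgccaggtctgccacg
Slc7a11, 66 and 47 bases before the start, chr3:50443652-50443699, minus strand: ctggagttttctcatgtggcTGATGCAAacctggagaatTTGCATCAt
Aars, 112 bases before the start, chr8:111033710-111033757, plus strand: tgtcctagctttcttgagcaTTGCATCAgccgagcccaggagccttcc
Gars, 30 bases before the start, chr6:55037951-55037998, plus strand: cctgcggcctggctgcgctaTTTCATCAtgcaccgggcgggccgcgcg
Atf3, 110 bases before the start, chr1:191183416-191183463, minus strand: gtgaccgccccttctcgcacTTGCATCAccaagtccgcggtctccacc
The first 5 of these genes fell in siUsf2 1 and 2, whereas Atf3 did not pass. Trib3, which fell, held the motif just after its start. Nupr1, Pck2, Iars and Slc1a4, none of which passed the test, also held it.

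The E-box CACGTG, the palindrome that USF factors bind, occurred in 3 of the 30 genes (10%), against 11.6% of tested genes with a window and 12.9% of the 712 such genes that fell. The 3 genes were Aars, Iars and Nupr1, and Aars is the one of them that fell. Its E-box lies upstream of the CARE shown above and is given for that position.
Aars, 146 bases before the start, chr8:111033676-111033721, plus strand: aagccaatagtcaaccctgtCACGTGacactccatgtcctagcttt
These are matches of letters in one window, and other positions in or around the genes were not searched.

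**Figure D1:**
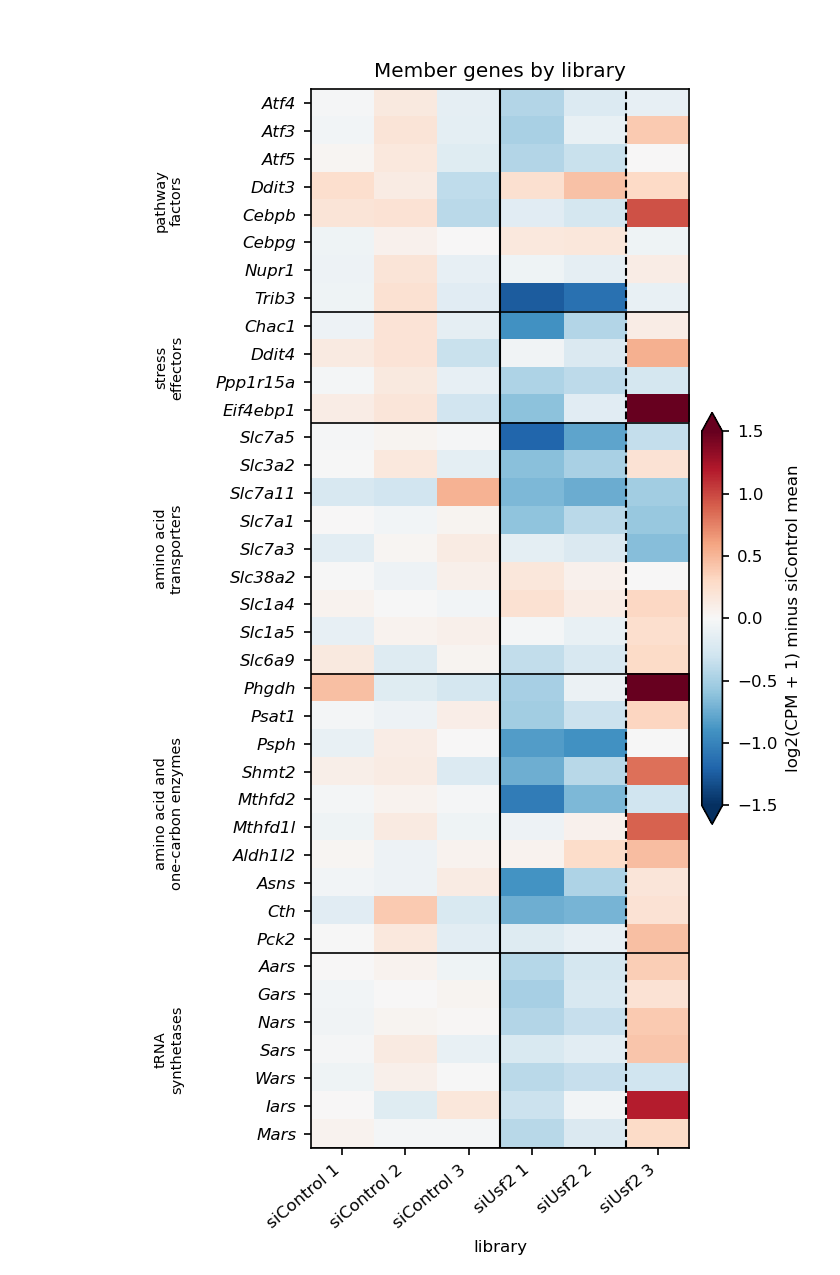
Each row is 1 of the 38 genes and each column a library; colour gives log2(CPM + 1) minus the mean of the 3 siControl libraries, with the scale ending at 1.5 in either direction, and the dashed line sets off the library labelled siUsf2 3. Most rows are blue in siUsf2 1 and 2 (medians -0.44 and -0.245 over the 38 genes) and many are red in the library labelled siUsf2 3 (median 0.24).

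Of the 8 pathway factors, Atf4, Atf5 and Trib3 fell and the other 5 did not pass. Atf4 (ENSMUSG00000042406, GRCm38 chromosome 15, 80255184 to 80257541) is the central factor and, at 182 CPM per kilobase of exon averaged over siControl, the most abundant of the 38 genes per length. Its level was 422, 473 and 389 CPM in siControl 1 to 3, 313 and 372 CPM in siUsf2 1 and 2, and 391 CPM in the library labelled siUsf2 3 (log2 fold change -0.33, SE 0.09, edgeR adjusted p = 0.0209). Both siUsf2 1 and 2 lay below the lowest control, siUsf2 2 by less than the spread of the controls. The call ended without siControl 1 (adjusted p = 0.0814), without siControl 2 (adjusted p = 0.0956) and without siUsf2 1 (adjusted p = 0.455, the highest over the 5-library settings).

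Atf5, a related leucine zipper factor induced with ATF4 under stress, was at 133, 145 and 115 CPM in the controls, 95.6 and 103 CPM in siUsf2 1 and 2, and 131 CPM in the library labelled siUsf2 3 (log2 fold change -0.41, SE 0.10, edgeR adjusted p = 0.00551). Trib3 (ENSMUSG00000032715, GRCm38 chromosome 2, 152337422 to 152344032) encodes a pseudokinase induced by ATF4 and DDIT3 that in turn dampens ATF4 activity. It was measured at 31.3, 38.5 and 29.0 CPM in siControl 1 to 3, 13.2 and 14.5 CPM in siUsf2 1 and 2, and 30.2 CPM in the library labelled siUsf2 3 (log2 fold change -1.26, SE 0.14, edgeR adjusted p = 1.33e-07), the largest fall among the 38 genes. Both siUsf2 1 and 2 lay far below the lowest control, and the adjusted p was at most 2.18e-05 in every alternative tried with these 5 libraries. The library labelled siUsf2 3 sat inside the control range for all 3 of these genes. Without siUsf2 1 the call of Atf5 ended (log2 fold change -0.34).

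The other 5 pathway factors did not pass. Ddit3, the pro-apoptotic factor also called CHOP, was at 29.2, 26.6 and 18.5 CPM in the controls, 28.9 and 33.4 CPM in siUsf2 1 and 2, and 30.2 CPM in the library labelled siUsf2 3 (log2 fold change 0.32, SE 0.15, edgeR adjusted p = 0.188). These values overlap between groups, and its fold change was positive. Atf3, a repressor and stress sensor, was low, at 6.69, 8.06 and 6.15 CPM in the controls, 4.68 and 6.36 CPM in siUsf2 1 and 2, and 9.37 CPM in the library labelled siUsf2 3 (log2 fold change -0.35, SE 0.23, edgeR adjusted p = 0.360). Cebpb, a C/EBP partner of ATF4, was at 188, 190 and 124 CPM in the controls, 146 and 137 CPM in siUsf2 1 and 2, and 318 CPM in the library labelled siUsf2 3 (log2 fold change -0.25, SE 0.17, edgeR adjusted p = 0.395). Its controls themselves spread widely, and without siControl 3 it passed (log2 fold change -0.42, edgeR adjusted p = 1.16e-04). The antisense-strand neighbour Tmem189 shares 20.7% of the exon bases of Cebpb, and with no strand setting known, reads of the pair cannot be told apart there. Cebpg, a dimer partner that favours ATF4 targets, and Nupr1, a small stress-induced chromatin protein, did not pass either, at log2 fold changes of 0.16 and -0.12.

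Of the 4 stress effectors, Chac1 and Ppp1r15a fell. Chac1, which degrades glutathione, was measured at 34.5, 42.2 and 32.9 CPM in siControl 1 to 3, 18.9 and 26.5 CPM in siUsf2 1 and 2, and 39.2 CPM in the library labelled siUsf2 3 (log2 fold change -0.70, SE 0.14, edgeR adjusted p = 0.00146). Ppp1r15a encodes GADD34, the phosphatase subunit that removes the phosphate from eIF2 and so restores translation. It was at 39.2, 44.3 and 36.6 CPM in the controls, 28.8 and 30.2 CPM in siUsf2 1 and 2, and 33.1 CPM in the library labelled siUsf2 3 (log2 fold change -0.45, SE 0.11, edgeR adjusted p = 0.00886). Here the library labelled siUsf2 3 also lay below every control. The call of Ppp1r15a ended without siControl 2 (edgeR adjusted p = 0.0670). Without siUsf2 1 the calls of Ppp1r15a and Chac1 both ended, at log2 fold changes of -0.40 and -0.46. Ddit4, an inhibitor of mTORC1, and Eif4ebp1, the translational repressor 4E-BP1, did not pass, at log2 fold changes of -0.17 and -0.41.

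Of the 9 amino acid transporters 4 fell: the leucine and cystine exchangers, their shared heavy chain, and the arginine and lysine carrier Slc7a1. Slc7a5 (ENSMUSG00000040010, GRCm38 chromosome 8, 121881150 to 121907694) encodes LAT1, the exchanger that brings in leucine and other large neutral amino acids. Its level was 387, 405 and 386 CPM in siControl 1 to 3, 171 and 227 CPM in siUsf2 1 and 2, and 307 CPM in the library labelled siUsf2 3 (log2 fold change -0.99, SE 0.10, edgeR adjusted p = 8.27e-08). The 3 controls were close to one another, and siUsf2 1, siUsf2 2 and the library labelled siUsf2 3 all lay below them. Slc3a2, the glycoprotein that carries LAT1 and the cystine exchanger to the cell surface, was at 206, 232 and 187 CPM in the controls, 135 and 148 CPM in siUsf2 1 and 2, and 241 CPM in the library labelled siUsf2 3 (log2 fold change -0.57, SE 0.09, edgeR adjusted p = 9.06e-05), with the last library above every control. Per kilobase of exon, Slc7a5 stood at 1.79, 1.66 and 1.96 times the level of Slc3a2 in siControl 1 to 3, at 1.21 and 1.46 times in siUsf2 1 and 2, and at 1.21 times in the library labelled siUsf2 3. The ratio was lower in all 3 siUsf2 libraries than in any control, and this difference was not tested.

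Slc7a1, the cationic amino acid transporter CAT-1, was measured at 103, 99.7 and 106 CPM in siControl 1 to 3, 67.4 and 77.7 CPM in siUsf2 1 and 2, and 68.8 CPM in the library labelled siUsf2 3 (log2 fold change -0.52, SE 0.10, edgeR adjusted p = 3.33e-04). All 3 siUsf2 libraries lay below every control. It was also the member nearest to a call over all 6 libraries (log2 fold change -0.56, edgeR adjusted p = 0.133). Its 5-library call ended without siUsf2 1 (log2 fold change -0.40). Slc7a11, the cystine and glutamate exchanger xCT that feeds glutathione synthesis, was low, at 5.95, 5.69 and 10.8 CPM in the controls, 4.11 and 3.88 CPM in siUsf2 1 and 2, and 4.69 CPM in the library labelled siUsf2 3 (log2 fold change -0.92, SE 0.27, edgeR adjusted p = 0.0259). Its fold change rests largely on siControl 3: without that library it was -0.54 (edgeR adjusted p = 0.136). The call also ended with limma-voom (adjusted p = 0.0664), without siUsf2 1 (log2 fold change -0.95) and without siUsf2 2 (log2 fold change -0.90).

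The transporters of small neutral amino acids did not pass the test. Slc38a2, the sodium-coupled carrier SNAT2 that is itself raised by amino acid starvation, was the most abundant transporter of the set at 1006 to 1125 CPM in siControl and 1108 to 1195 CPM in siUsf2 1 and 2 (log2 fold change 0.10, edgeR adjusted p = 0.518). The alanine, serine and cysteine carrier Slc1a4 was at 0.16, the glutamine carrier Slc1a5 at -0.09, and the glycine carrier Slc6a9 at -0.34, none past the test. Slc7a3, another cationic carrier, was near the limit of detection, at 0.811 to 1.19 CPM in siControl, 0.822 and 0.737 CPM in siUsf2 1 and 2, and 0.293 CPM in the library labelled siUsf2 3, where a count of 0 would allow up to 0.879 CPM.

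**Figure D2:**
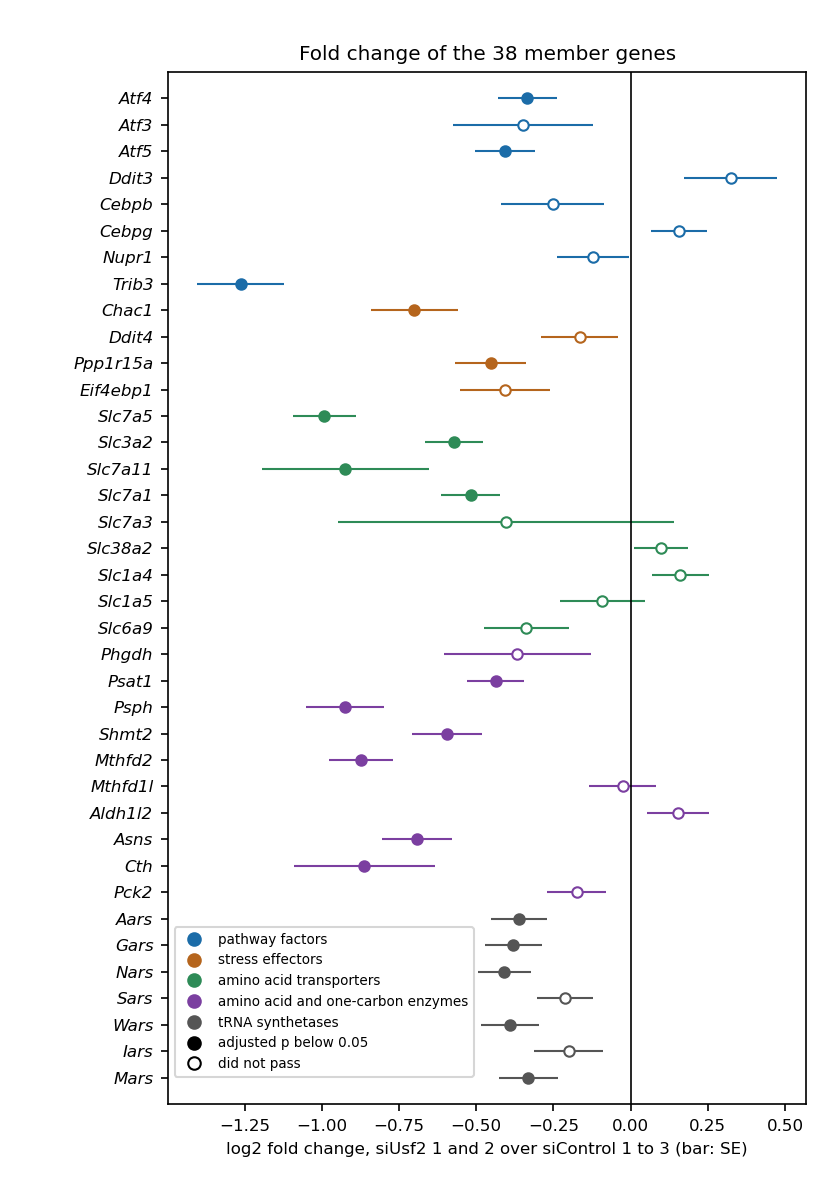
Points are the log2 fold changes of the 38 genes in siUsf2 1 and 2 over siControl 1 to 3, bars their standard errors, colours their roles, and filled points the 20 genes at an adjusted p below 0.05. Filled points all lie left of 0, from Trib3 at -1.26 to Mars at -0.33, while Ddit3, Cebpg, Slc38a2, Slc1a4 and Aldh1l2 lie to the right.

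Among the 10 enzymes 6 fell, with members of serine synthesis and of the mitochondrial folate pathway among them. Serine is made from a glycolytic intermediate by Phgdh, Psat1 and Psph in turn. Psat1, the aminotransferase, was at 209, 203 and 230 CPM in the controls, 149 and 170 CPM in siUsf2 1 and 2, and 267 CPM in the library labelled siUsf2 3 (log2 fold change -0.44, SE 0.09, edgeR adjusted p = 0.00157). Its call ended without siUsf2 1 (log2 fold change -0.33). Psph, the phosphatase of the last step, was measured at 30.3, 35.3 and 32.7 CPM in siControl 1 to 3, 17.9 and 16.9 CPM in siUsf2 1 and 2, and 32.5 CPM in the library labelled siUsf2 3 (log2 fold change -0.93, SE 0.13, edgeR adjusted p = 5.07e-06). Values of Psph in siUsf2 1 and 2 were close to each other and far below the controls, and its adjusted p was at most 2.43e-04 over the settings tried with these 5 libraries. The library labelled siUsf2 3 was at the control level. Psph shares 10.4% of its exon bases with Cct6a on the other strand, which was at 136 to 162 CPM in siControl and 132 to 137 CPM in siUsf2 1 and 2.

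The first enzyme, Phgdh, had few counts on the gene itself in every library but the one labelled siUsf2 3. Its level was 11.8, 7.25 and 6.77 CPM in siControl 1 to 3, 5.63 and 7.77 CPM in siUsf2 1 and 2, and 191 CPM in the library labelled siUsf2 3 (log2 fold change -0.37, SE 0.24, edgeR adjusted p = 0.357). It has 16 matched pseudogenes, copies of its sequence elsewhere in the genome that can take its reads. Those copies together held 211 to 236 CPM in siControl, 143 and 166 CPM in siUsf2 1 and 2, and 0.879 CPM in the library labelled siUsf2 3. Gene and copies together came to 232, 243 and 218 CPM in siControl 1 to 3, 149 and 174 CPM in siUsf2 1 and 2, and 192 CPM in the library labelled siUsf2 3. The sums fell in siUsf2 1 and 2 (log2 fold change -0.54, SE 0.09, edgeR adjusted p = 6.60e-05). On the sums all 3 siUsf2 libraries lay below every control. Whether the reads on the copies came from Phgdh was not tested.

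Psat1, Iars and Eif4ebp1 each had 1 matched pseudogene, which held counts in the first 5 libraries and none in the library labelled siUsf2 3. For Psat1 most of the summed counts lay on the gene itself. The summed level of Psat1 was 322, 322 and 349 CPM in the controls, 225 and 245 CPM in siUsf2 1 and 2, and 267 CPM in the library labelled siUsf2 3. For Iars the sum was 184, 176 and 207 CPM, then 147 and 165 CPM, and 156 CPM in the last library. For both genes the last library lay above every control on the gene's own counts and below every control on the sums. Eif4ebp1 stayed above, at 130 CPM against 86.1 to 120 CPM. With pseudogene counts added to parent genes for all genes, 23 of the 38 members fell (7.66% of all genes tested were lower), the 3 additional ones being Phgdh, Iars (log2 fold change -0.30, edgeR adjusted p = 0.0268) and Eif4ebp1 (log2 fold change -0.48, edgeR adjusted p = 0.00469).

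**Figure D3:**
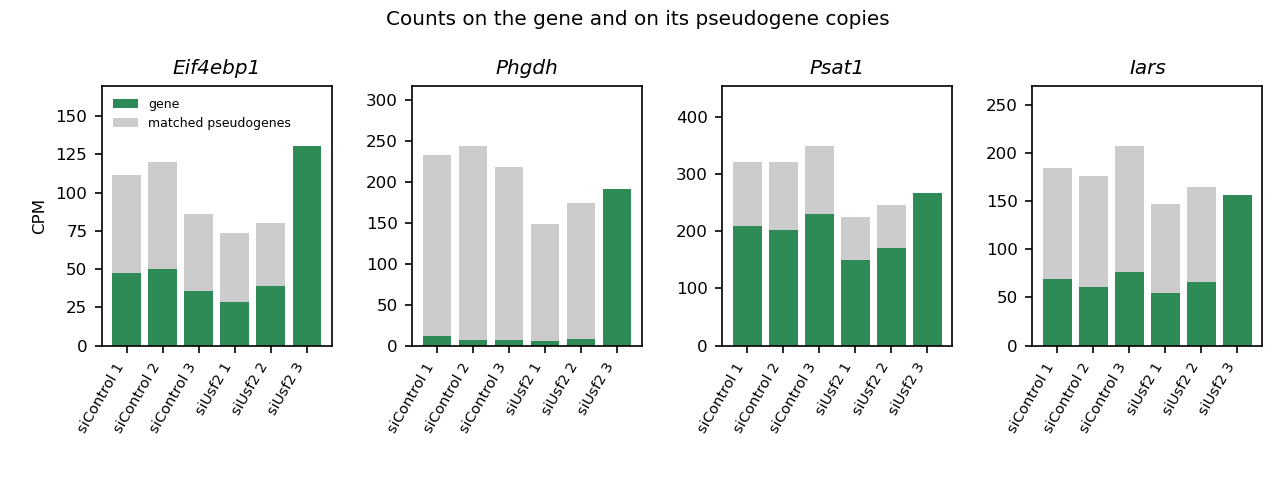
Bars give CPM in each library on the gene itself (green) and on its matched pseudogenes (grey) for the 4 members with such copies; bars start at 0 and each panel has its own scale. In the library labelled siUsf2 3 the grey part is absent or nearly so (0 CPM, and 0.879 CPM for Phgdh), and the whole Phgdh bar there, 192 CPM, lies between those of siUsf2 1 and 2 (149 and 174 CPM) and those of the controls (218 to 243 CPM).

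Of the 4 mitochondrial folate enzymes, Shmt2 and Mthfd2 fell. Shmt2, which splits serine into glycine and a folate-bound one-carbon unit, was at 82.5, 84.5 and 67.6 CPM in the controls, 46.3 and 58.2 CPM in siUsf2 1 and 2, and 139 CPM in the library labelled siUsf2 3 (log2 fold change -0.59, SE 0.11, edgeR adjusted p = 6.80e-04). Mthfd2, which oxidises that unit, was measured at 117, 124 and 118 CPM in siControl 1 to 3, 57.3 and 74.7 CPM in siUsf2 1 and 2, and 96.9 CPM in the library labelled siUsf2 3 (log2 fold change -0.87, SE 0.10, edgeR adjusted p = 6.27e-07). The controls for Mthfd2 were tight and all 3 siUsf2 libraries lay below them. For Shmt2, by contrast, the library labelled siUsf2 3 was far above the controls. The Shmt2 call ended without siUsf2 1 (log2 fold change -0.42). The later mitochondrial enzymes did not pass: Mthfd1l, which releases formate, was at -0.02 and Aldh1l2, which oxidises the unit to carbon dioxide, at 0.15.

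Asns, asparagine synthetase and a standard reporter of ATF4 activity, was at 104, 101 and 116 CPM in siControl 1 to 3, 56.5 and 76.8 CPM in siUsf2 1 and 2, and 121 CPM in the library labelled siUsf2 3 (log2 fold change -0.69, SE 0.11, edgeR adjusted p = 1.95e-04). The siUsf2 1 value was the lower of the pair, and the library labelled siUsf2 3 lay above every control. Cth, which makes cysteine from cystathionine, was low, at 7.84, 12.1 and 7.51 CPM in the controls, 4.99 and 5.16 CPM in siUsf2 1 and 2, and 10.5 CPM in the library labelled siUsf2 3 (log2 fold change -0.86, SE 0.23, edgeR adjusted p = 0.0130). Its call ended without siControl 2 (adjusted p = 0.131, the highest over the 5-library settings) and without siUsf2 1 (adjusted p = 0.0723). Pck2, the mitochondrial phosphoenolpyruvate carboxykinase, did not pass, at -0.17 (edgeR adjusted p = 0.261).

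Of the 7 tRNA synthetases, which attach amino acids to their tRNAs, 5 fell by small and similar amounts. Aars, for alanine, was at 147, 152 and 140 CPM in the controls, 108 and 122 CPM in siUsf2 1 and 2, and 190 CPM in the library labelled siUsf2 3 (log2 fold change -0.36, SE 0.09, edgeR adjusted p = 0.00799). Gars, for glycine, was at 189, 196 and 200 CPM in the controls, 138 and 164 CPM in siUsf2 1 and 2, and 228 CPM in the library labelled siUsf2 3 (log2 fold change -0.38, SE 0.09, edgeR adjusted p = 0.00587). Nars, for asparagine, was at 195, 208 and 205 CPM in the controls, 149 and 159 CPM in siUsf2 1 and 2, and 266 CPM in the library labelled siUsf2 3 (log2 fold change -0.41, SE 0.09, edgeR adjusted p = 0.00175). In these 3 genes siUsf2 1 and 2 lay below the controls and the library labelled siUsf2 3 above them.

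Wars, for tryptophan and also induced by interferon, was at 89.9, 99.8 and 93.8 CPM in the controls, 71.2 and 74.3 CPM in siUsf2 1 and 2, and 76.4 CPM in the library labelled siUsf2 3 (log2 fold change -0.39, SE 0.09, edgeR adjusted p = 0.00510), with all 3 siUsf2 libraries below the controls. Mars, for methionine, was at 97.4, 91.6 and 91.7 CPM in the controls, 69.7 and 80.4 CPM in siUsf2 1 and 2, and 114 CPM in the library labelled siUsf2 3 (log2 fold change -0.33, SE 0.09, edgeR adjusted p = 0.0212). Its call ended without siControl 1 (edgeR adjusted p = 0.110) and without siUsf2 1 (log2 fold change -0.22). Without siUsf2 1 the calls of Aars, Gars, Nars and Wars ended too, at log2 fold changes of -0.26, -0.25, -0.35 and -0.35. Sars, for serine, and Iars, for isoleucine, were at -0.21 and -0.20 and did not pass on their own counts. Mars and Ddit3 overlap by 68 exon bases on opposite strands, a small part of either gene.

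The amount by which genes fell differed between siUsf2 1 and siUsf2 2. In 29 of the 38 genes (76.3%) the value in siUsf2 1 was the lower of the pair, against 47.1% of all genes tested. The median difference from the siControl mean was -0.44 in siUsf2 1 and -0.245 in siUsf2 2 on the log2(CPM + 1) scale, against 0.02 and 0.00 over all genes tested. Both siUsf2 1 and siUsf2 2 lay below every control in 22 of the 38 genes, against 19.5% of all genes tested, and both lay above in 2, against 21.8%. Which library was left out changed the count most for siUsf2 1. Without it 6 genes fell, namely Asns, Mthfd2, Psph, Slc3a2, Slc7a5 and Trib3, beside 2.90% of all genes tested, and the lone siUsf2 2 was then taken to vary as much as the controls. The other 14 had adjusted p of 0.0575 to 0.455 there. Without siUsf2 2, 20 genes fell (background 3.82%), with Eif4ebp1 among them in place of Slc7a11. Without siControl 1, 2 or 3 in turn, 18, 17 and 24 genes fell, where 3.45%, 3.89% and 11.6% of all genes were lower.

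Other normalizations, tools and filters for the 5 libraries gave 19 to 21 genes that fell, and 23 fell with pseudogene counts added, as given above. The count was 20 with RLE normalization (6.09% of all genes tested lower), upper-quartile normalization (5.23%), DESeq2 (5.96%), a filter of 50 counts in 3 libraries (7.42%, with 37 of the 38 tested) and no robust estimation (6.17%). It was 19 with limma-voom (5.68%) and 21 with no filter (4.27%). With a replicate block 24 fell, where 13.2% of all genes were lower. Both the block and leaving out siControl 3 ended the call of Slc7a11 and added Cebpb, Ddit4, Eif4ebp1, Pck2 and Sars. Among the 5 libraries replicate 3 holds only siControl 3, so under the block that library adds nothing to the fold change. The block and leaving out siControl 3 are therefore not separate checks.

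The library labelled siUsf2 3 did not share the fall as a set. Over the 38 genes it lay below every control in 8, within their range in 8 and above in 22, against 42.8% below and 38.5% above among all genes tested. Lists of neighbouring genes, described below, also differed. It lay above every control in 11 of 13 other cytosolic tRNA synthetases, 11 of 14 other one-carbon genes and 11 of 16 genes of the eIF2 list. The same held for 10 of 17 mitochondrial tRNA synthetases, 9 of 15 ATF6 and XBP1 targets and 6 of 8 NRF2 targets. In further ATF4 targets it lay above in 7 of 16, and in other amino acid transporters in 1 of 20. Values above every control were thus not particular to the 38 genes. Among the 20 members that fell in siUsf2 1 and 2 it lay below the controls in 6 (30%) and above in 8 (40%), whereas among all 1102 genes that fell it lay below in 63.7% and above in 23.4%. The 6 were Slc7a5, Slc7a1, Slc7a11, Mthfd2, Ppp1r15a and Wars. In this library the 95% Poisson interval, which covers counting error only, was 24.6 to 36.6 CPM for Trib3 and 110 to 133 CPM for Asns. All 38 members are protein-coding, whereas pseudogenes were kept among all genes tested, and this library held only 0.974% of its counts on pseudogenes. The shares below and above over all genes are therefore not those of like genes, and shares over protein-coding genes alone were not computed. Pseudogene share, depth and Usf2 level all set this library apart, and their part in these values was not tested beyond the pseudogene sums given above.

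**Figure D4:**
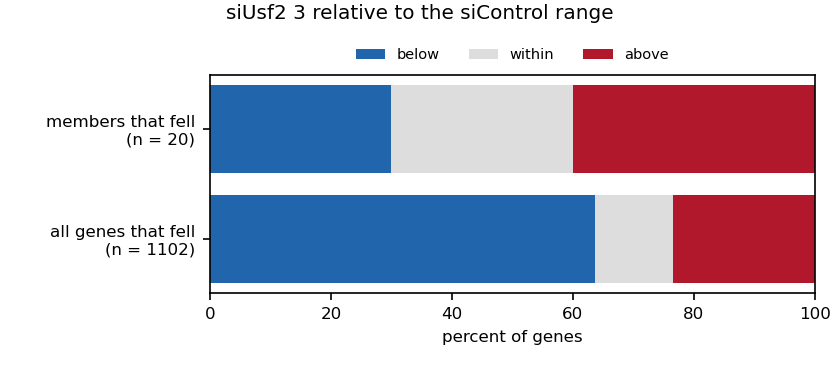
Bars divide the 20 members that fell in siUsf2 1 and 2, and all 1102 genes that fell, by whether the library labelled siUsf2 3 lay below, within or above the range of the 3 siControl libraries. Blue, for below, covers 30% of the members and 63.7% of all genes that fell. The members are all protein-coding, whereas pseudogenes, nearly without counts in this library, were not removed from all genes that fell.

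Over all 6 libraries no member was called in either direction by edgeR, where 7 of 16662 genes were called lower (0.0420%) and 0 higher. At an unadjusted edgeR p below 0.05, 9 of the 38 members passed, beside 1753 of all 16662 genes tested. The members' median log2 fold change was then -0.13. DESeq2 called Slc7a1 and Wars lower (2.48% of all genes), and edgeR with pseudogene counts added to parent genes called Slc7a1 (1.07%). limma-voom with library quality weights called 9 lower, namely Atf5, Mthfd2, Ppp1r15a, Psph, Slc3a2, Slc7a1, Slc7a5, Trib3 and Wars (3.08%).

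Other genes of the pathway, from lists set by function, were counted in the same way. Of 16 further genes reported as ATF4 targets or stress hormones, 6 fell and 1 rose in siUsf2 1 and 2, with a median log2 fold change of -0.15, where 6.40% of all genes tested fell and 4.97% rose. Fgf21, a hormone secreted by stressed muscle and liver, was at 147, 164 and 130 CPM in the controls, 43.4 and 55.2 CPM in siUsf2 1 and 2, and 112 CPM in the library labelled siUsf2 3 (log2 fold change -1.59, SE 0.11, edgeR adjusted p = 1.45e-10). All 3 siUsf2 libraries lay below every control. Gpt2, a mitochondrial alanine aminotransferase, and Herpud1, of endoplasmic reticulum degradation, fell by 0.68 (SE 0.09) and 0.64 (SE 0.09) on the log2 scale. Stc2, Got1 and Xpot also fell. Vldlr, a lipoprotein receptor named here because it was the one that rose, was at 0.33 (SE 0.10, edgeR adjusted p = 0.0327).

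Upstream, of 16 genes for eIF2, its kinases and their regulators, its exchange factor and its phosphatase, 1 fell and 1 rose. These counts are near the shares over all genes tested, 6.40% lower and 4.97% higher. Eif2b2, a subunit of the exchange factor, was at 56.0, 57.04 and 52.6 CPM in the controls, 39.6 and 40.8 CPM in siUsf2 1 and 2, and 72.0 CPM in the library labelled siUsf2 3 (log2 fold change -0.47, SE 0.10, edgeR adjusted p = 0.00208), with the last library above the controls. Eif2ak4, the kinase GCN2 that senses uncharged tRNA, rose in siUsf2 1 and 2. It was at 29.4, 27.4 and 30.8 CPM in the controls, 42.2 and 38.7 CPM in siUsf2 1 and 2, and 55.6 CPM in the library labelled siUsf2 3 (log2 fold change 0.46, SE 0.11, edgeR adjusted p = 0.00656), with every siUsf2 library above every control. Phosphorylation of eIF2 and the amount of ATF4 protein were not measured.

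The neighbouring families showed few or no calls, where 6.40% of all genes tested fell and 4.97% rose. Counts this small are near those shares. None of 13 other cytosolic tRNA synthetases passed, although all 13 had negative fold changes (median -0.20, with Rars at -0.28, Farsa at -0.27 and Tars at -0.26). Of 17 mitochondrial tRNA synthetases Nars2 fell (-0.57, SE 0.18, edgeR adjusted p = 0.0341) and none rose. Of 14 other one-carbon genes, none passed and 10 had positive values (median 0.16). None of 14 tested of 20 other amino acid transporters passed (median 0.00), and the other 6 were too low to test.

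Of 15 ATF6 and XBP1 targets, mainly chaperones of the endoplasmic reticulum, Dnajb11 fell (-0.33, SE 0.09, edgeR adjusted p = 0.0193) and none rose (median -0.01). Of all genes tested 6.40% fell and 4.97% rose. Of 8 NRF2 targets, genes of the oxidative stress response, Nqo1 and Me1 rose by 0.72 (SE 0.17) and 0.42 (SE 0.11), and Hmox1 fell by 0.39 (SE 0.11) on the log2 scale. Whether the 38 genes differ from any of these lists was not tested.

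**Figure D5:**
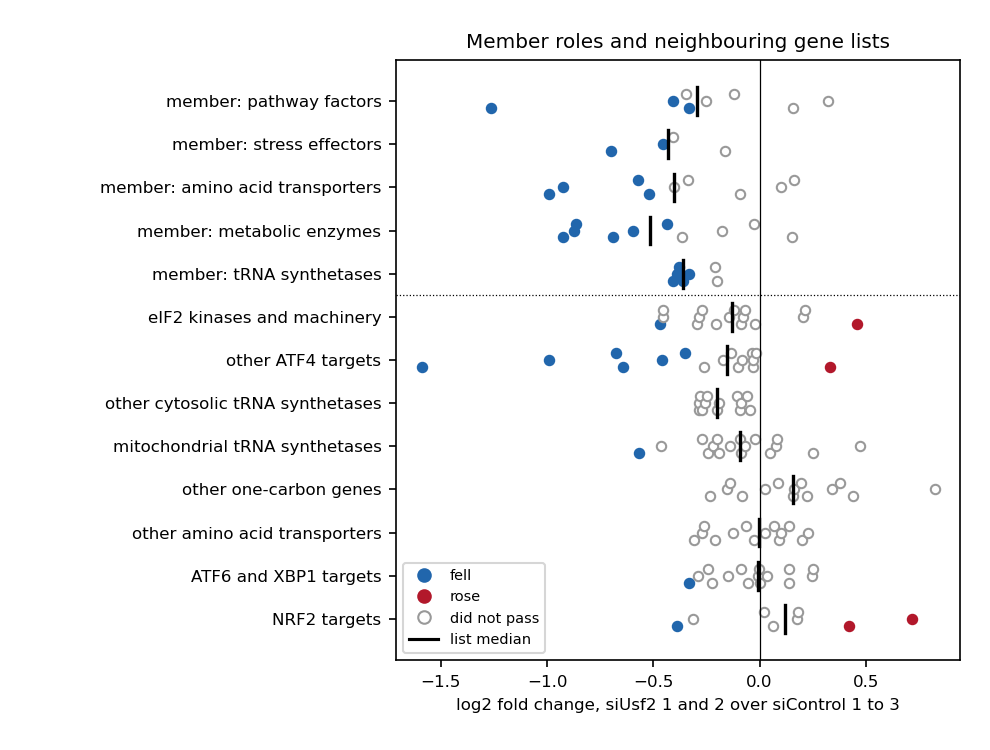
Each point is a gene at its log2 fold change in siUsf2 1 and 2 over siControl 1 to 3, in rows by member role (above the dotted line) and by neighbouring list (below it); filled blue points fell, filled red points rose, and black bars are list medians. Row medians of the members run from -0.52 for the metabolic enzymes to -0.29 for the pathway factors, and those of the neighbouring lists from -0.20 to 0.16.

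Muscle marker genes also differed in siUsf2 1 and 2. Myog, the transcription factor of terminal differentiation, was at 1036, 1156 and 918 CPM in the controls, 282 and 330 CPM in siUsf2 1 and 2, and 522 CPM in the library labelled siUsf2 3 (log2 fold change -1.77, SE 0.10, edgeR adjusted p = 6.44e-13). Of the 6 muscle cell markers 4 fell, namely Myod1, Des, Myog and Cdh15, and Myf5 rose. Among all genes tested 6.40% fell and 4.97% rose. The log2 fold changes of the 6 markers ran from -1.77 for Myog to 0.37, with a median of -0.32. The part of these marker differences in the values above was not tested.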

How the data were processed

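The authors deposited unnormalized whole-number read counts for Ensembl genes in each library. The submitters' processing notes name FastQC, Trimmomatic, HISAT2, featureCounts and DESeq2 and the build mm10, with no versions or roles; their annotation and strand setting are not stated in any source used. Of 2 deposited tables the other, in TPM, was not used. Symbols, coordinates and exon lengths came from GENCODE M21 (GRCm38), in which 52133 of 55414 identifiers were found.

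Total counts were 14790997 to 17715250 per library, and 3414565 in the library labelled siUsf2 3. Intervals cover counting error only. The main comparison (siUsf2 1 and 2 with siControl 1 to 3) and that of all 6 libraries used edgeR 4.0.16 in R 4.3.3: filterByExpr, TMM, robust glmQLFit and glmQLFTest, two-sided, Benjamini-Hochberg adjusted over all genes tested. Standard errors are the log2 fold change divided by the root of the F statistic. The test was first run on simulated counts.

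Alternatives were DESeq2 1.42.0, limma-voom (limma 3.58.1), RLE or upper-quartile normalization, no filter, 50 counts in 3 libraries, no robust estimation, a replicate block, each library left out, and pseudogene counts added to parent genes (matched by minimap2 2.31 over 150 or more bases, with identity of 90% and coverage of 50% as minimums; 5883 pseudogenes, 2146 parents). With all 6 libraries, library quality weights were also tried. Every library's value is given for members that passed and for 10 set members. The members, lists and settings were chosen with earlier results of these data known.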

Additional observations from a re-analysis of the deposited data

How the results depend on the processing

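In the 5-library comparison the count of 20 members that fell ranged from 6 to 24 with single libraries left out (6 without siUsf2 1), was 24 with the replicate block, and stayed within 19 to 23 under the other alternatives; no member rose in any. All genes called numbered 1957, 868 to 3560 with single libraries left out, and 3989 with the replicate block. Upper-quartile normalization moved the share of higher calls from 43.7% to 55.5% and left 20 members lower. Whether the shared replicate numbers pair the libraries was not settled. Same-numbered deviations from group means correlated at -0.07 to 0.00 over 6 libraries. The siUsf2 mean there includes the library labelled siUsf2 3, which stands apart, so this check cannot decide. siControl 1 correlated at -0.07 with both siUsf2 1 and siUsf2 2. Without the library labelled siUsf2 3, the deviations of siUsf2 1 and 2 are exact opposites. In the 5-library fit the block of replicate 3 holds only siControl 3. The block ended the call of Slc7a11 (-0.55, edgeR adjusted p = 0.105) and gave calls for Cebpb, Ddit4, Eif4ebp1, Pck2 and Sars.

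Over all 6 libraries the count of 0 members became 2 with DESeq2, 1 after adding pseudogene counts, 9 with library quality weights, and 0 to 20 with single libraries left out. All genes called numbered 7 there: 4 with RLE, 0 with upper-quartile normalization, 706 with DESeq2, 104 with limma-voom, 116 with no filter, 4 with 50 counts in 3 libraries, 0 with the replicate block, 207 with pseudogene counts added, 964 with quality weights, and 0 to 1957 with single libraries left out (1957 without siUsf2 3). At an unadjusted p below 0.05, 1835 genes passed with upper-quartile normalization, 874 with the block, and 1065 to 1485 where leaving out a library gave 0.

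Signs of log2 fold changes over 6 libraries turned for members near 0 or set by the library labelled siUsf2 3; the cause was not tested. Shmt2 (-0.0029) was 0.0015 with RLE, 0.0459 with upper-quartile normalization, 0.002 with DESeq2 and -0.59 to 0.28 with single libraries left out. Cebpb (0.21) was -0.28 with quality weights and -0.25 to 0.42 with single libraries left out. Phgdh (2.89) was -0.46 with pseudogene counts added, -0.41 with quality weights and -0.37 to 3.45 with single libraries left out. Leaving out single libraries gave Atf3 -0.35 to 0.12, Aars -0.36 to 0.0462, Nars -0.41 to 0.0222 and Mars -0.33 to 0.0147. Within 250 bases before the start, 8 genes held TGATGNAA and 3 CACGTG.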
